A study of Mus musculus with 22 samples.

Results

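The cytosolic ribosomal protein genes encode the proteins of the ribosome that translates messenger RNA in the cytosol. They were taken as the rows of the left ventricle (LV) and right ventricle (RV) tables whose Ensembl identifier maps to a protein-coding mouse symbol beginning with Rpl or Rps and a number, together with Rpsa, Rplp0, Rplp1 and Rplp2. Processed pseudogenes and the Rps6k kinases were left out, and a mean of at least 10 was required. Of 83 matching symbols, 81 passed, 49 of the large and 32 of the small subunit, among 49671 genes in the LV table and 49670 in the RV table. Rpl10l and Rpl39l did not reach the mean. The symbol rule also leaves out cytosolic ribosomal genes with other names, such as Fau and Rack1. Beyond that mean, no measured value entered the rule.

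The samples were whole ventricles of CD1 mice, an outbred stock, so animals of 1 group differ in genotype. At postnatal day 1 a mouse had either neonatal pulmonary artery banding (nPAB) against a 30G needle, which narrows the outflow of the right ventricle, or a Sham operation, and hearts were taken 7 days later. Both ventricles were sequenced from 6 nPAB mice (numbers 5, 6, 7, 8, 10 and 11) and 5 Sham mice (numbers 9 to 13), giving 22 libraries of bulk RNA in 4 groups: RV nPAB, RV Sham, LV nPAB and LV Sham. Mice 10 and 11 of the nPAB and Sham groups are different animals. The labels do not name litters, so p-values measure the spread between these mice.

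Depth recovered from the values was 8.65 to 10.3 M reads in RV nPAB, 7.43 to 10.7 M in RV Sham, 7.90 to 11.3 M in LV nPAB and 7.11 to 8.80 M in LV Sham. In nPAB mice 6 and 7 the RV and LV libraries disagreed in sex-linked genes, while those of the other 9 mice did not. Whether these pairs each come from 1 animal is therefore in doubt, and results that changed without them are given both ways. All 10 cardiomyocyte markers were detected in every group. The 10 skeletal muscle markers, a possible source of Rpl3l, summed to at most 3.65 CPM (reads scaled to the library's own total), with Myh2, Myog and Tnnc2 at 0 in all groups. In bulk tissue, fewer cells of a type and less RNA per cell cannot be told apart.

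Each ribosome carries a single copy of most of these proteins, and cells keep their amounts in balance. Messenger RNAs for ribosomal proteins usually start with a 5′ terminal oligopyrimidine (TOP) motif, a C followed by a run of C and T, through which the kinase mTORC1 controls how well they are translated, so their RNA level and their protein output can move separately. Growing heart muscle is known for making more ribosomes. Rpl3l is a paralogue of Rpl3 found in heart and skeletal muscle. It takes the place of Rpl3, which lies close to the peptidyl transferase centre, and in mouse skeletal muscle the ratio of the pair shifts towards Rpl3 during growth.

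The bases around the transcription start show the oligopyrimidine tract known for these genes, and members where it is short. Windows of 30 bases, 15 before and 15 after the RefSeq start, are from RefSeq GRCm38.p6, and capitals mark the longest run of C or T on the gene's own strand. They are Rpl35 at chr2:39005117-39005146 (minus strand), Rpl38 at chr11:114668565-114668594 (plus), Rps27 at chr3:90213634-90213663 (minus), Rps28 at chr17:33824548-33824577 (minus) and the muscle paralogue Rpl3l at chr17:24727811-24727840 (plus). Rpl35, Rpl38 and Rps28 are shown because they rose in the RV, Rps27 as a member of high level that did not pass, and Rpl3l for its own pattern.
Rpl35: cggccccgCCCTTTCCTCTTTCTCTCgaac
Rpl38: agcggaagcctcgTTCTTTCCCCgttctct
Rps27: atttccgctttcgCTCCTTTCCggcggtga
Rps28: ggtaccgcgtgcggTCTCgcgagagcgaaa
Rpl3l: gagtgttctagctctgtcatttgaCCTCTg

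Of the 81 members, 61 had a window in the table. A run of at least 8 C or T was found in 25 of these 61 (41.0%), against 11.9% of the 27025 genes in the table, searching only the gene's own strand. The longest run had a median of 6 bases in members and 4 in all genes. Among members called higher in the banded RV, 10 of 12 had a window, with a median run of 7 bases, against 6 bases in 51 of the other 69. The printed windows show that Rps28, which rose by about as much as Rpl35, has only a short run at the annotated start.

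Levels were compared between genes as CPM per kilobase of the principal GENCODE transcript, averaged over all libraries. On that scale Rpl41, which encodes the shortest ribosomal protein, was highest at 2664, followed by Rps27 at 2567 and Rps29 at 2259. At the low end were Rpl7l1 at 10.8, Rpl13a at 15.0, Rpl3l at 20.0 and Rpl29 at 25.3. Counted rows of near-identical copies, described below, amounted to 249% of the counts of Rpl13a and 88.9% of those of Rpl29. For Rpl7l1 the figure was 0.593%, and Rpl3l has no such copy. The low places of Rpl13a and Rpl29 therefore depend on how reads were assigned between them and their copies. Each measured paralogue was below its parent: Rpl3l at 20.0 against 155 for Rpl3, Rpl22l1 at 197 against 296 for Rpl22, Rpl7l1 at 10.8 against 432 for Rpl7, and Rps27l at 546 against 2567 for Rps27. The median member varied less between mice than the median gene, though the sets were not matched for level. The median standard deviation within groups was 0.11 on the log2 scale for members and 0.28 for the 13364 genes tested in both ventricles. Among the members of low level it was 0.38 for Rpl3l, 0.26 for Rpl13a, 0.23 for Rpl29 and 0.19 for Rpl7l1. The part of level in this difference was not tested.

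In the banded RV, most ribosomal protein genes sat slightly above Sham, and a minority passed the test. Of 81 members, 12 (14.8%) were called higher and 2 lower, and 67 did not pass, with limma on log2(value + 1) and a Benjamini-Hochberg adjusted p of 0.05 over all 13660 genes. The background was 11.1% of all genes called higher and 10.8% called lower, so the count of higher members was near the background and the count of lower members was under it. The log2 fold change was above 0 in 71 members, and its median was 0.12, against 0.00 over all genes. The large subunit had 7 higher and 2 lower of 49 genes (median 0.11) and the small subunit 5 higher and none lower of 32 (median 0.12). The share of calls that were higher depended on scaling. With CPM, scaled to the library total, in place of the authors' size factors, 5 members were higher and 3 lower, 51 were above 0, the median was 0.02, and over all genes 1089 were higher and 2151 lower (median −0.09), against 1519 and 1480.

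**Figure D1:**
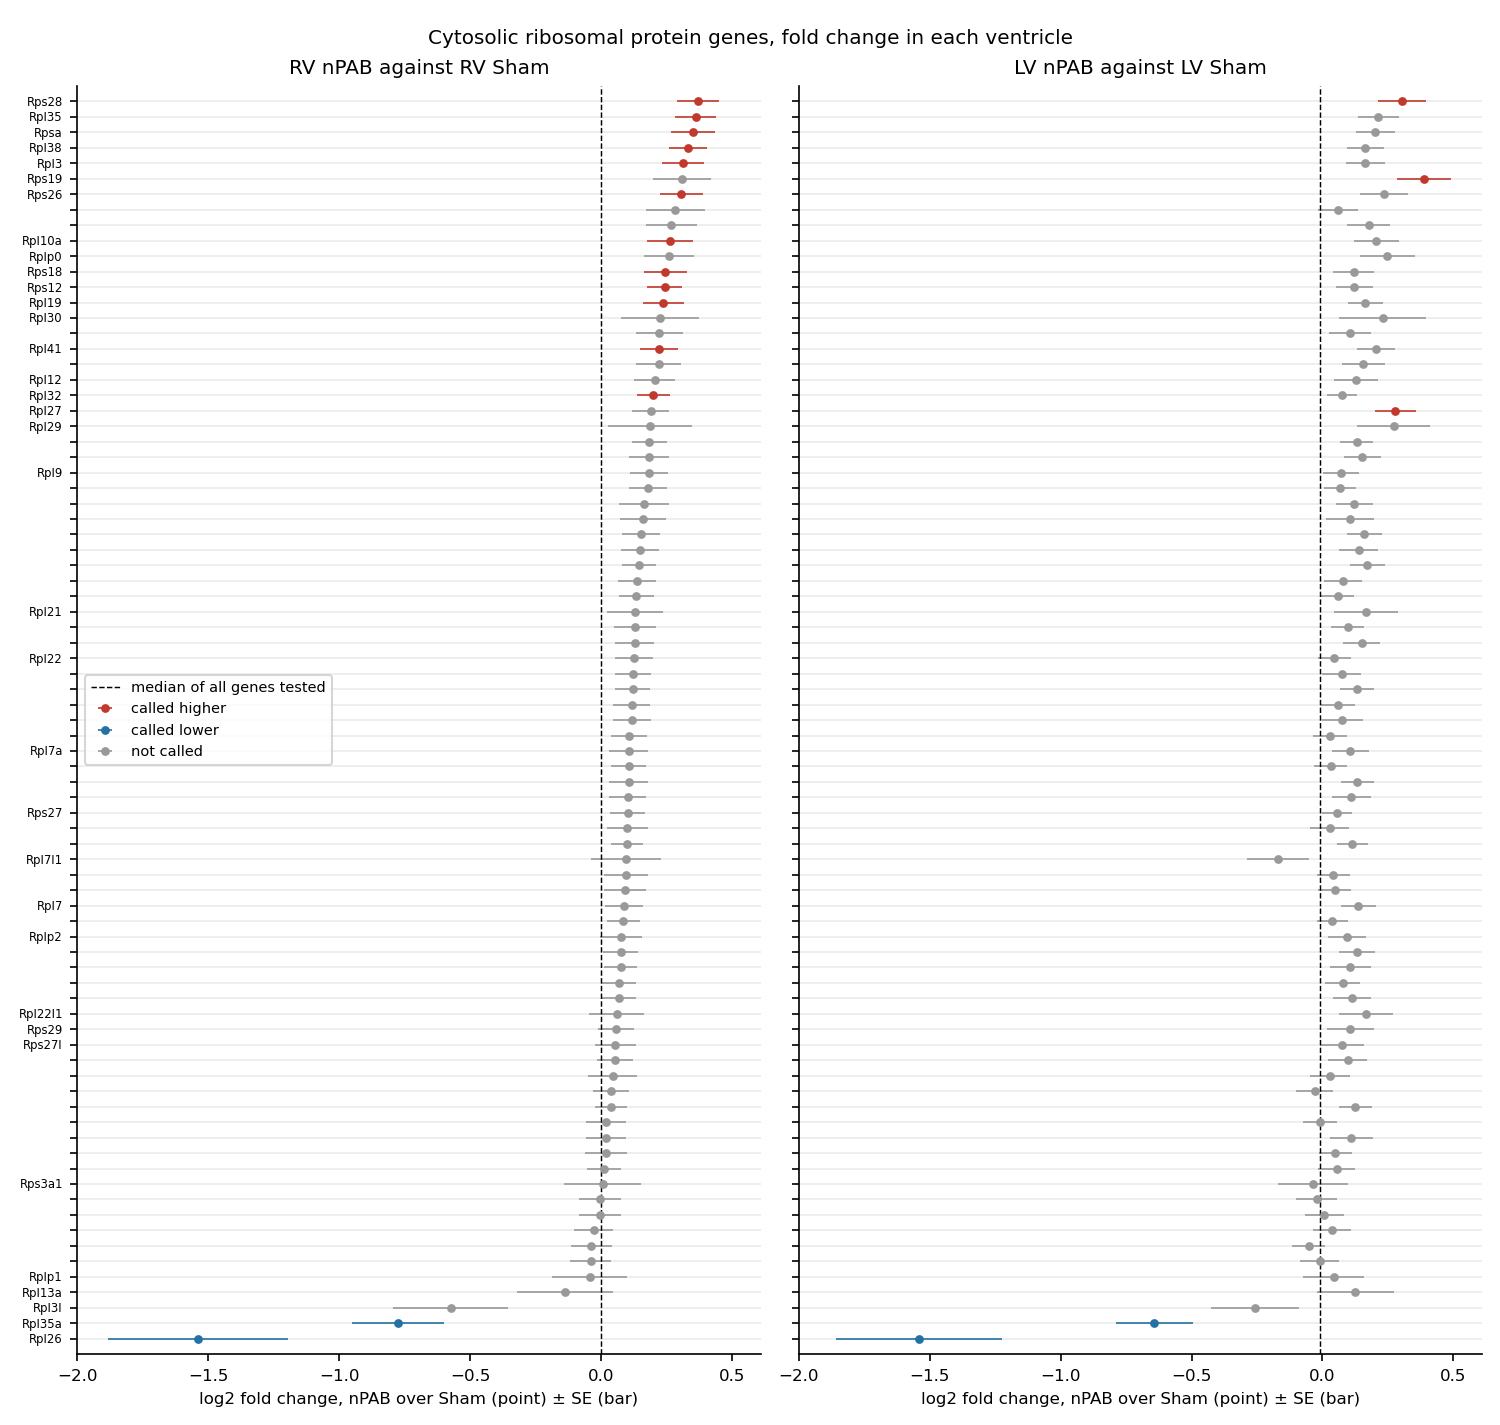
Log2 fold change (nPAB over Sham, ± standard error) of each of the 81 ribosomal protein genes in the RV (left panel) and the LV (right panel), from limma on log2(value + 1); the dashed line is the median of all genes tested, and genes described in the text are labelled. Most members lie just above 0, while Rpl26 and Rpl35a in both ventricles and Rpl3l in the RV (−0.57, not called) lie lowest.

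Rps28, a small protein of the 40S subunit, changed most among the members that rose. It had 1050, 939, 889, 902, 998 and 1038 normalised counts in RV nPAB libraries (mice 5, 6, 7, 8, 10 and 11), against 736, 666, 774, 766 and 804 in RV Sham libraries (mice 9 to 13). Every nPAB library was above every Sham library, with a log2 fold change of 0.37 (SE 0.081, adjusted p = 0.0028).

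Rpsa, a 40S protein also described as the laminin receptor, had 8505, 8335, 7538, 7648, 9390 and 9468 normalised counts in RV nPAB, against 6264, 5819, 7179, 6597 and 7386 in RV Sham. The groups did not overlap, and the log2 fold change was 0.35 (SE 0.083, adjusted p = 0.0050). Rps26, which lines the channel where mRNA leaves the 40S subunit, had 7818, 7314, 6863, 6664, 6662 and 6853 in RV nPAB, against 4989, 5155, 6582, 5490 and 6316 in RV Sham. Its groups were close but separate, with a log2 fold change of 0.31 (SE 0.082, adjusted p = 0.011). The other small subunit members called higher were Rps12, at the beak of the subunit (log2 0.24, adjusted p = 0.013), and Rps18, in its head (log2 0.24, adjusted p = 0.040).

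In the large subunit, Rpl35, at the exit of the peptide tunnel, had 1752, 1782, 1584, 1715, 1865 and 1993 normalised counts in RV nPAB, against 1285, 1321, 1403, 1585 and 1344 in RV Sham. Sham mouse 12 lay just above the lowest nPAB library, and the log2 fold change was 0.36 (SE 0.079, adjusted p = 0.0028). Rpl38, known from mouse embryos for its part in translating Hox mRNAs, had 4019, 4113, 3802, 3869, 3560 and 4387 in RV nPAB, against 2958, 2937, 3189, 3417 and 3218 in RV Sham. All nPAB libraries were higher (log2 0.33, SE 0.072, adjusted p = 0.0028).

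Rpl3 had 2328, 2043, 1881, 1917, 2191 and 2224 normalised counts in RV nPAB, against 1486, 1595, 1841, 1714 and 1801 in RV Sham. Again no Sham library reached the nPAB range, and the log2 fold change was 0.31 (SE 0.081, adjusted p = 0.0090). The remaining 4 were Rpl10a, the protein of the mobile L1 stalk (log2 0.26, adjusted p = 0.038), Rpl19, which bridges the subunits (0.24, 0.036), Rpl41 (0.22, 0.037) and Rpl32 (0.20, 0.030). Rpl41 missed the threshold without nPAB mice 6 and 7 (0.20, 0.067).

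**Figure D2:**
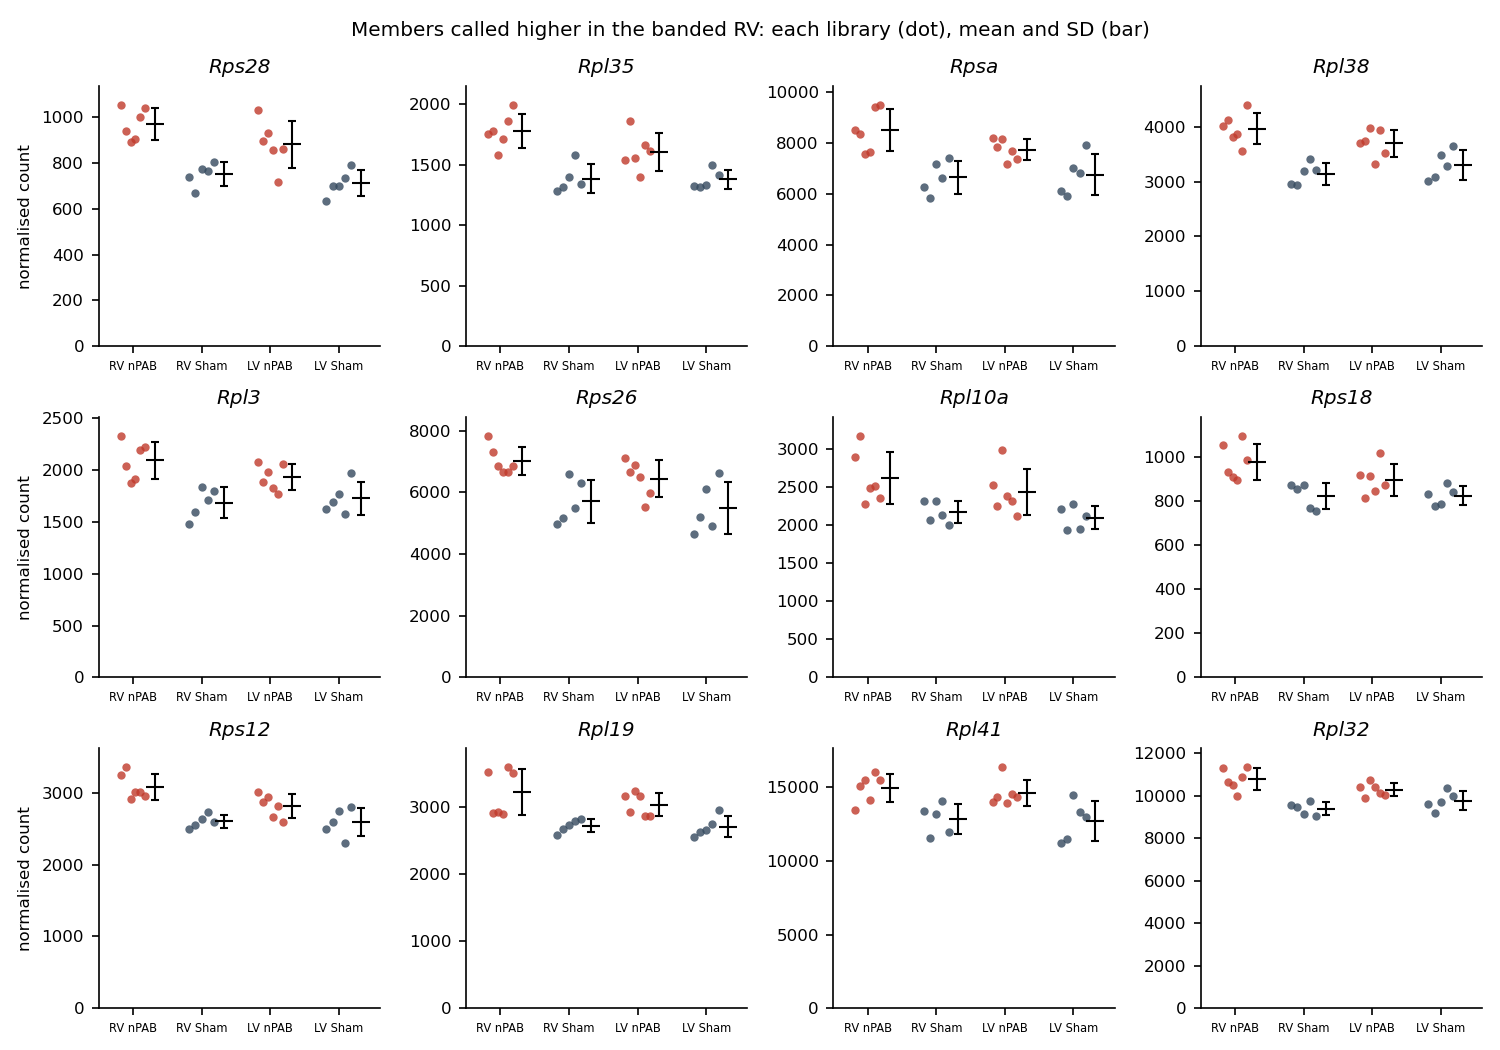
Normalised counts per library for the 12 members called higher in the RV of nPAB mice, in RV nPAB, RV Sham, LV nPAB and LV Sham libraries; points are mice and bars the group mean ± SD, and the 2 ventricles were normalised separately. In the RV, 9 of the 12 genes show no overlap between nPAB and Sham mice; Rpl35, Rpl10a and Rpl41 overlap.

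The groups did not overlap for 10 members, against 12.9% of all genes tested: the 9 called members Rpl19, Rpl3, Rpl32, Rpl38, Rps12, Rps18, Rps26, Rps28 and Rpsa, and Rpl9 (log2 0.18, adjusted p = 0.082). Rpl35, Rpsa, Rpl38, Rpl3 and Rps28 were called higher under every alternative run, and Rps12 and Rps26 under all but CPM scaling. The count of members called higher was 18 without nPAB mice 6 and 7, 7 without Sham mouse 10, and 8 without nPAB mouse 11 or Sham mouse 13.

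Markers of cell types also differed between the same libraries, where 11.1% of all genes were called higher and 10.8% lower. Of 8 fibroblast markers none rose and 3 fell, and their sum was 4518 to 7198 CPM in RV nPAB, against 7136 to 9560 in RV Sham. Of 10 cardiomyocyte markers 2 rose and 4 fell, with sums of 76458 to 89614 CPM in RV nPAB, against 86839 to 96962 in RV Sham. Of 6 atrial markers tested 1 rose (median log2 1.49), with sums of 127 to 1218 CPM in RV nPAB, against 43.1 to 346 in RV Sham. Of 6 erythroid markers 1 rose, all 6 being above 0, with sums of 1068 to 1887 CPM in RV nPAB, against 1084 to 1681 in RV Sham. Among 8 endothelial markers 1 fell, among 8 mural markers 1 rose, and none of 6 leukocyte markers passed. Their part in the results for the ribosomal protein genes was not tested.

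Rps19, mutated in human Diamond-Blackfan anaemia, had 1901, 1795, 1725, 1835, 1452 and 2368 normalised counts in RV nPAB, against 1348, 1381, 1893, 1444 and 1366 in RV Sham. Sham mouse 11 lay within the nPAB range, and the log2 fold change of 0.31 missed the threshold (adjusted p = 0.055). The stalk proteins, which recruit the elongation factors, did not pass either. Rplp0, the base of the stalk, had 6616, 5670, 5180, 4856, 5586 and 5889 in RV nPAB, against 4455, 4082, 4391, 4833 and 5829 in RV Sham (log2 0.26, adjusted p = 0.054). Only Sham mouse 13 reached the nPAB range. Rplp1 gave −0.04 (adjusted p = 0.87) and Rplp2 0.08 (adjusted p = 0.54).

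The other paralogues and their parents did not pass in the RV. Rpl22l1, which can replace Rpl22 in mice, gave log2 0.06 and Rpl22 0.13. Rpl7l1 gave 0.10 and Rpl7 0.09, and Rps27l 0.05 and Rps27 0.10. Among the genes of the highest and lowest counts, Rpl7a gave 0.11, Rpl29 0.19 and Rpl13a −0.14, all short of the threshold.

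In the LV, which is not behind the band, fewer members passed and the family again sat slightly above Sham. Of 81 members, 3 were called higher (Rps19, Rps28 and Rpl27) and 2 lower (Rpl26 and Rpl35a), where 4.76% of the 13528 genes tested were higher and 4.55% lower, 9.31% in all. The log2 fold change was above 0 in 71 members, with a median of 0.11, against −0.01 over all genes. With CPM the median was 0.05, Rps19 alone was called higher, and over all genes 468 were higher and 903 lower, against 644 and 616. No member was free of overlap between the groups, against 6.53% of all genes.

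Rps19 had 1833, 1751, 1759, 1793, 1366 and 2030 normalised counts in LV nPAB, against 1241, 1280, 1721, 1209 and 1268 in LV Sham. As in the RV, nPAB mouse 10 was low and Sham mouse 11 high within their groups (log2 0.39, SE 0.10, adjusted p = 0.023). Rps28 had 1029, 894, 931, 855, 716 and 857 in LV nPAB, against 634, 698, 696, 735 and 790 in LV Sham, so that only nPAB mouse 10 fell within the Sham range (log2 0.30, SE 0.093, adjusted p = 0.046). Rpl27, also among the Diamond-Blackfan genes in humans, had 1698, 1582, 1627, 1461, 1523 and 1654 in LV nPAB, against 1283, 1314, 1341, 1129 and 1511 in LV Sham. Its groups overlapped only at Sham mouse 13 (log2 0.28, SE 0.078, adjusted p = 0.031). Without nPAB mice 6 and 7 none of the 5 LV calls held, at fold changes close to those of all mice. They were log2 0.38 for Rps19 (adjusted p = 0.079), 0.27 for Rps28 (0.15), 0.27 for Rpl27 (0.093), −1.53 for Rpl26 (0.077) and −0.66 for Rpl35a (0.060). Leaving out Sham mouse 9, 10 or 12 also left no member called higher, while leaving out Sham mouse 13 gave 5 and leaving out nPAB mouse 5 or 7 gave 1. Among markers of other cells, 1 of 8 endothelial genes fell in the LV and 1 of 8 mural genes rose, and none of the 6 erythroid or 8 fibroblast genes passed. The erythroid sum was 1262 to 1767 CPM in LV nPAB, against 641 to 1558 in LV Sham.

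Rpl26 and Rpl35a were the members called lower in both ventricles, and each was split within Sham mice. Rpl26, at the rim of the peptide tunnel exit, had 370, 313, 288, 301, 339 and 386 normalised counts in RV nPAB, against 1242, 1166, 1326, 1317 and 327 in RV Sham. In the LV it had 319, 291, 327, 303, 328 and 306 in nPAB, against 1257, 1085, 1139, 1232 and 326 in Sham. All nPAB mice and Sham mouse 13 were low in both ventricles, and the other 4 Sham mice were high. The log2 fold change was −1.54 in the RV (SE 0.34, adjusted p = 0.0097) and −1.54 in the LV (SE 0.32, adjusted p = 0.014). Without nPAB mice 6 and 7 the RV value was −1.47 and missed the threshold (adjusted p = 0.0504).

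Rpl26, at chr11:68901583-68906989 on the plus strand of GRCm38, has a copy that differs from it by few bases. This is Gm15772, a processed pseudogene at chr5:3236431-3236868 (plus strand), which matches all 435 coding bases with 2 substitutions, C177T and T288C (the Rpl26 base, its position from 1 at the start of the coding sequence, then the Gm15772 base). Short reads that lie wholly within these coding bases and span neither position cannot be assigned to 1 of the 2 rows by sequence. The stretch around the second substitution is shown because it is the kind of difference on which the assignment of a read rests. It lies at chr11:68903283-68903312 in Rpl26 and at chr5:3236703-3236732 in Gm15772 (both plus strand, GENCODE transcripts on GRCm38), with the differing base in capitals.
Rpl26: tggcacaaccgtccaTgtgggcatccaccc
Gm15772: tggcacaaccgtccaCgtgggcatccaccc

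Counts of the copy mirrored those of Rpl26. Gm15772 had 1571, 1372, 1332, 1366, 1354 and 1485 normalised counts in RV nPAB, against 689, 630, 710, 821 and 1332 in RV Sham, and its log2 fold change was 0.81 (SE 0.15, adjusted p = 0.0013). In the LV it had 1495, 1212, 1518, 1270, 1299 and 1406 in nPAB, against 620, 682, 647, 697 and 1411 in Sham (log2 0.82, SE 0.18, adjusted p = 0.014). The same 7 mice that were low in Rpl26 were high in Gm15772, in both ventricles.

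The sum of the pair varied little. It was 1746 ± 128 in RV nPAB and 1912 ± 190 in RV Sham, and 1679 ± 136 in LV nPAB and 1819 ± 80.7 in LV Sham (SD, n = 6 nPAB and 5 Sham). With every near-identical copy added to its member, an alternative added once the values were known, Rpl26 was no longer called: its log2 fold change was −0.13 in the RV (SE 0.080, adjusted p = 0.27) and −0.11 in the LV (SE 0.073, adjusted p = 0.37). The standard deviation of log2 Rpl26 within groups was 0.11 with its copies and 0.61 without them.

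**Figure D3:**
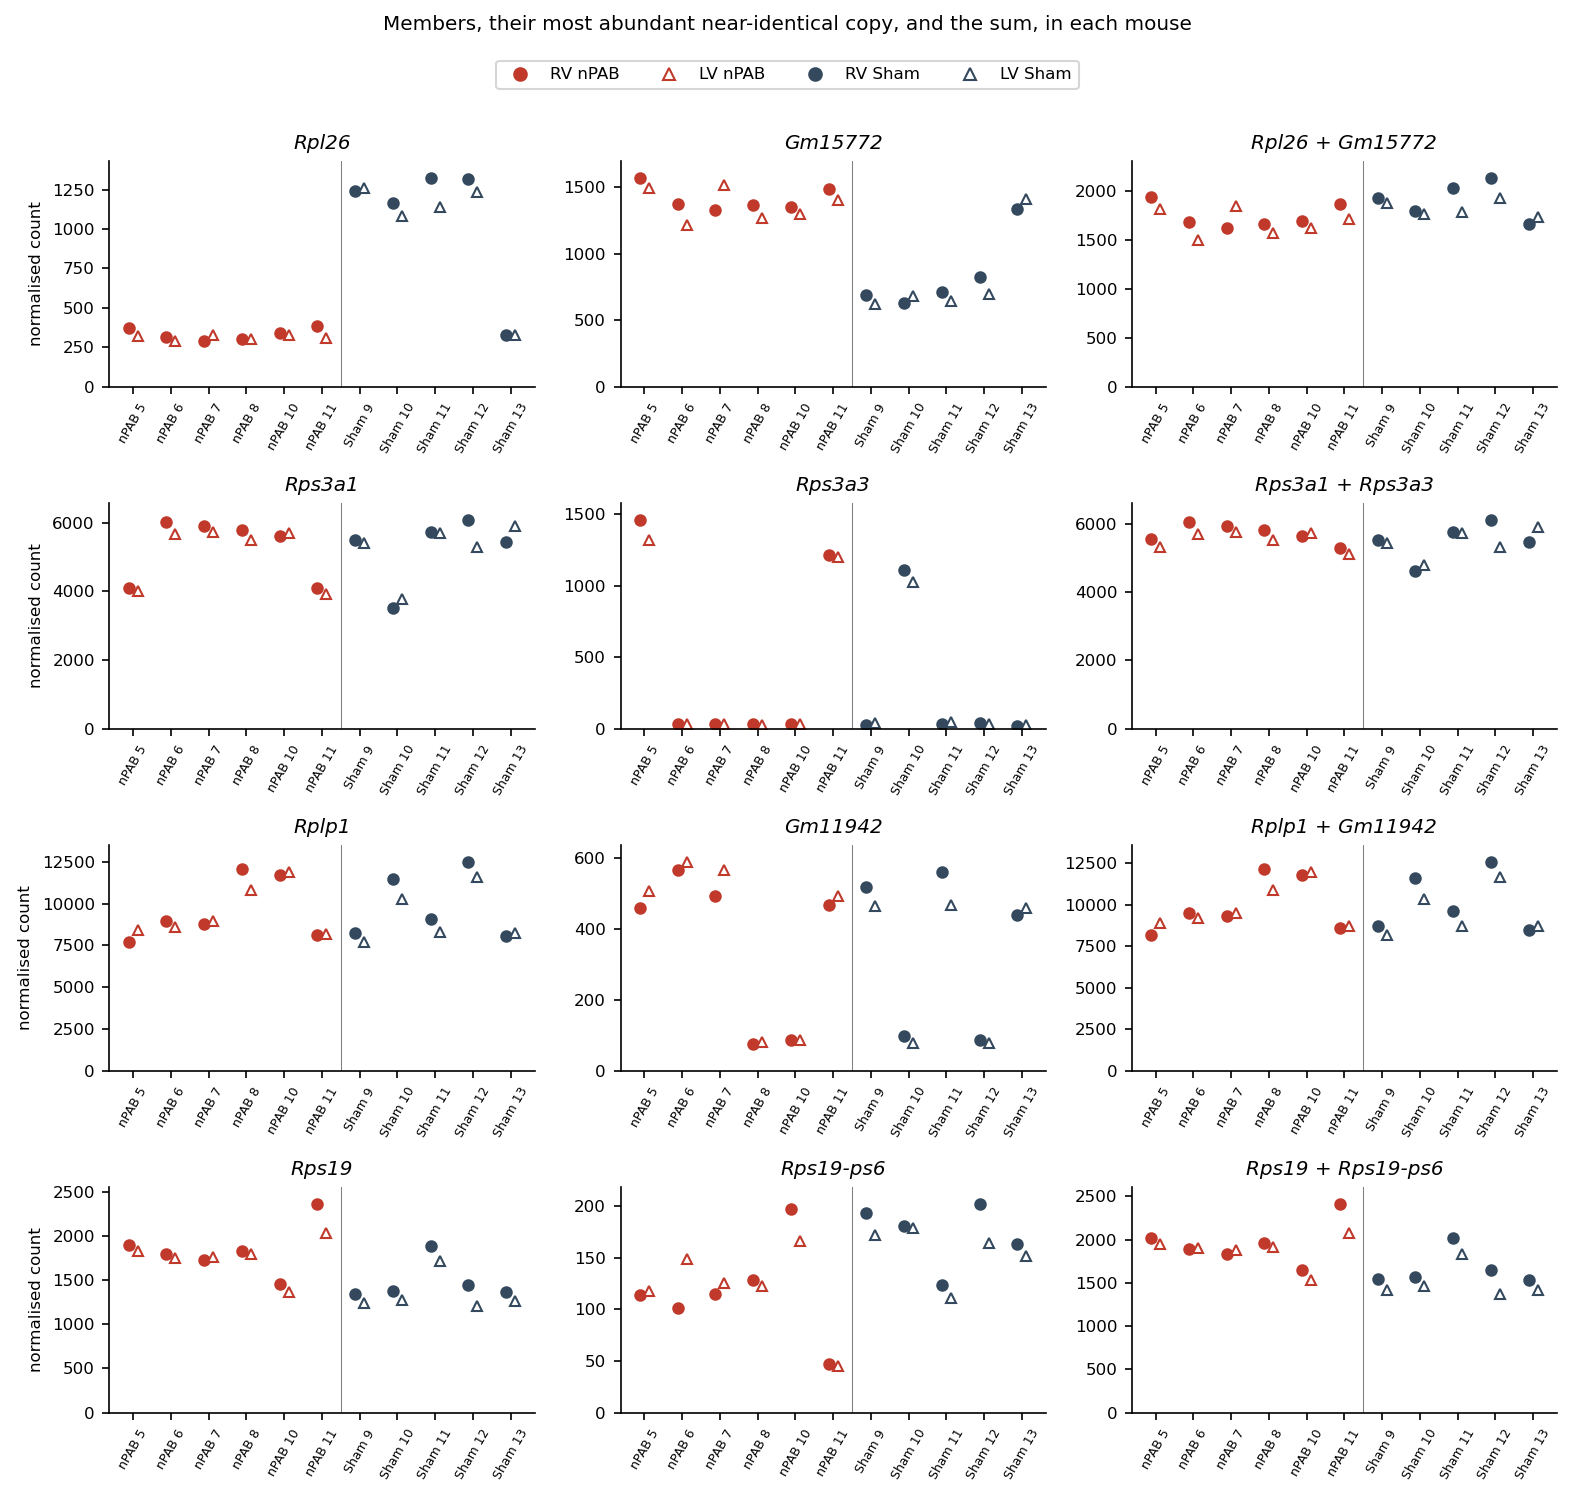
Normalised counts per mouse of 4 ribosomal protein genes and a near-identical pseudogene of each (Rpl26 and Gm15772, Rps3a1 and Rps3a3, Rplp1 and Gm11942, Rps19 and Rps19-ps6) and of their sum, with nPAB mice left of Sham mice; filled circles are RV and open triangles LV libraries. Rpl26 and Gm15772 switch places in Sham mouse 13 against the other Sham mice while their sum stays between 1503 and 2138, and both ventricles of a mouse lie together.

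Rpl35a, another gene mutated in human Diamond-Blackfan anaemia, had 1050, 941, 962, 1041, 1002 and 975 normalised counts in RV nPAB, against 2033, 920, 1913, 2065 and 1933 in RV Sham. In the LV it had 997, 969, 1074, 915, 994 and 1058 in nPAB, against 1708, 928, 1754, 1803 and 1851 in Sham. Here Sham mouse 10, not mouse 13, was low with the nPAB mice, and no library was intermediate. The log2 fold change was −0.77 in the RV (SE 0.17, adjusted p = 0.0064) and −0.64 in the LV (SE 0.15, adjusted p = 0.014). Adding its 14 near-identical copies left −0.68 in the RV (adjusted p = 0.0073) and −0.56 in the LV (adjusted p = 0.010). The copy closest in sequence, Rpl35a-ps2, had only 27.0 to 57.2 normalised counts over all 22 libraries.

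Such copies are the rule in this family: 76 of the 81 members had at least 1 transcript elsewhere with 95% identity or more over 80% or more of the coding sequence, with a median of 5 and at most 57, for Rpl21. Rpl3l was among the 5 that had none. Levels of the 76 depend on how the authors' counting treated reads that match several places, which is not given in the sources used here. Adding the copies kept the number of RV members called higher at 12, with Rpl12 gained (log2 0.21, adjusted p = 0.049) and Rps18 missing the threshold (log2 0.23, adjusted p = 0.053). In the LV, 4 were then higher, with Rpl13a gained (log2 0.30, adjusted p = 0.039).

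Some members had levels that, within a group, went with the mouse in both ventricles. As a description over 11 mice, with a threshold chosen after the values were seen, the deviation of a gene from its group mean correlated at r = 0.9 or more between the RV and LV of the same mouse in 7 of 81 members (8.64%), against 1.03% of 13364 genes. These were Rpl26 (0.97), Rpl30 (0.96), Rplp1 (0.96), Rps3a1 (0.95), Rpl35a (0.94), Rps19 (0.94) and Rpl21 (0.93). The median r was 0.39 over members and 0.24 over all genes. Without nPAB mice 6 and 7, whose pairing is in doubt, these 7 members stayed at 0.94 or more. Rpl36 then also passed 0.9 (0.91, against 0.87 with all mice). Other members moved more, such as Rpl10a from −0.09 to 0.78 and Rpl34 from −0.06 to −0.62. The share over all genes was not computed without these mice.

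For Rps3a1 and Rplp1, as for Rpl26, a copy lay the opposite way in the same mice. Rps3a3, a processed pseudogene at chr13:108670603-108671397 that differs from Rps3a1 by 8 substitutions, had 1026 to 1461 normalised counts in nPAB mice 5 and 11 and Sham mouse 10, and 20.0 to 43.6 in the other mice. Rps3a1 itself had 4101, 6013, 5905, 5794, 5608 and 4092 in RV nPAB, against 5493, 3514, 5719, 6085 and 5439 in RV Sham, lowest in those same 3 mice. Gm11942, at chr4:32964888-32965232 and 9 substitutions away from Rplp1, had 74.9 to 96.5 in nPAB mice 8 and 10 and Sham mice 10 and 12, and 440 to 590 elsewhere. Rplp1 had 7717, 8973, 8814, 12095, 11706 and 8140 in RV nPAB, against 8228, 11503, 9082, 12518 and 8067 in RV Sham, highest in those 4 mice. Rps19-ps6, 5 substitutions away from Rps19, was lowest in nPAB mouse 11 (47.1 in the RV and 44.7 in the LV), where Rps19 was highest. Gm8730, a copy of Rplp0, had 252 in the RV and 248 in the LV of Sham mouse 13, where Rplp0 was highest of Sham. In the other RV Sham mice Gm8730 had 630 to 809. Rps26-ps1 had 395, 399 and 401 in RV Sham mice 9, 10 and 12, where Rps26 was lowest of Sham. Mice 11 and 13 had 186 and 190. With copies added, the standard deviation within groups on the log2 scale was 0.099 against 0.28 for Rps3a1, and 0.21 against 0.26 for Rplp1. For Rplp0 it was 0.14 against 0.20, for Rps26 0.14 against 0.16, and for Rpsa it was larger, 0.19 against 0.14. Rps26 was still called higher in the RV with copies added.

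The muscle paralogue Rpl3l was lower, and Rpl3 higher, in the banded RV than in Sham RV, so that the ratio of the pair differed by more than either gene. Only Rpl3 passed its own test, and the ratio did not hold after adjustment. In the RV, Rpl3l (chr17:24727820-24736143, plus strand) had 152, 120, 282, 229, 165 and 99.8 normalised counts in nPAB, against 286, 247, 244, 196 and 259 in Sham. Mice 7 and 8 lay within the Sham range and the other 4 nPAB mice below it. The log2 fold change was −0.57 (SE 0.22) and missed the threshold (adjusted p = 0.073). It passed without nPAB mice 6 and 7 (−0.66, adjusted p = 0.026), without nPAB mouse 7 (−0.73, 0.0094), without nPAB mouse 8 (−0.67, 0.042), and with CPM (−0.67, 0.048).

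In the LV, Rpl3l had 210, 177, 286, 250, 305 and 256 normalised counts in nPAB, against 365, 214, 388, 260 and 265 in Sham, with the groups overlapping. The group means were 175 ± 69.0 in RV nPAB and 246 ± 32.4 in RV Sham, and 247 ± 47.4 in LV nPAB and 298 ± 74.5 in LV Sham (SD, n = 6 and 5). The order of the 4 groups was thus RV nPAB lowest and LV Sham highest, with RV Sham and LV nPAB, which were normalised separately, at nearly the same level.

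Rpl3l has no near-identical copy, and its coding sequence is 74.4% identical to that of Rpl3 (chr15:80077791-80091868, minus strand), over 407 and 403 codons. The longest stretch the pair shares is 22 bases from coding position 145, shown because it is where short reads could least tell them apart. It is given in capitals within 30 bases at chr17:24728454-24728483 (plus strand) for Rpl3l and chr15:80082416-80082445 (minus strand) for Rpl3, from GENCODE transcripts on GRCm38.
Rpl3l: gggcTACAAGGCTGGCATGACCCACAccct
Rpl3: gggtTACAAGGCTGGCATGACCCACAtcgt

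Since the ratio of Rpl3l to Rpl3 is formed within a library, no scaling between libraries enters it. It uses the Rpl3 row alone, though Rpl3 has 7 near-identical copies, whose counted rows amounted to 24.0% of its own counts. The percentages below therefore depend on how reads were assigned between Rpl3 and its copies, and no ratio was formed with copies added. Counts of Rpl3l were 8.56 ± 4.05% of those of Rpl3 in RV nPAB and 14.8 ± 2.91% in RV Sham, and 12.9 ± 2.90% in LV nPAB and 17.4 ± 4.60% in LV Sham (SD, n = 6 and 5). The mean log2 ratio in the RV was −3.67 ± 0.65 in nPAB and −2.78 ± 0.28 in Sham, a difference of −0.89 (two-sided exact permutation test, p = 0.0346, smallest possible 0.00433). In the LV it was −2.98 ± 0.33 in nPAB and −2.56 ± 0.38 in Sham, a difference of −0.42 (exact p = 0.0996). The RV effect less the LV effect was −0.47 (exact p = 0.169), so a difference between the ventricles in the response was not shown. Within mice, the ratio was lower in the RV than in the LV in 5 of 6 nPAB mice and 3 of 5 Sham mice, by a mean of −0.47 over all 11 (exact sign-change permutation test, p = 0.0166). Without mice 6 and 7, whose pairing is in doubt, it was lower in 4 of 4 nPAB mice and 3 of 5 Sham mice, by −0.51 over 9 mice (exact sign-change permutation test, p = 0.0312).

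After Benjamini-Hochberg adjustment over the 6 tests of this ratio none passed, with the smallest exact adjusted p at 0.0996 for RV against LV over 11 mice and 0.104 for RV nPAB against RV Sham. Leaving out 1 mouse gave RV differences of −1.07 to −0.73, with an exact p above 0.05 in 8 of the 11 cases (at most 0.0762).

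**Figure D4:**
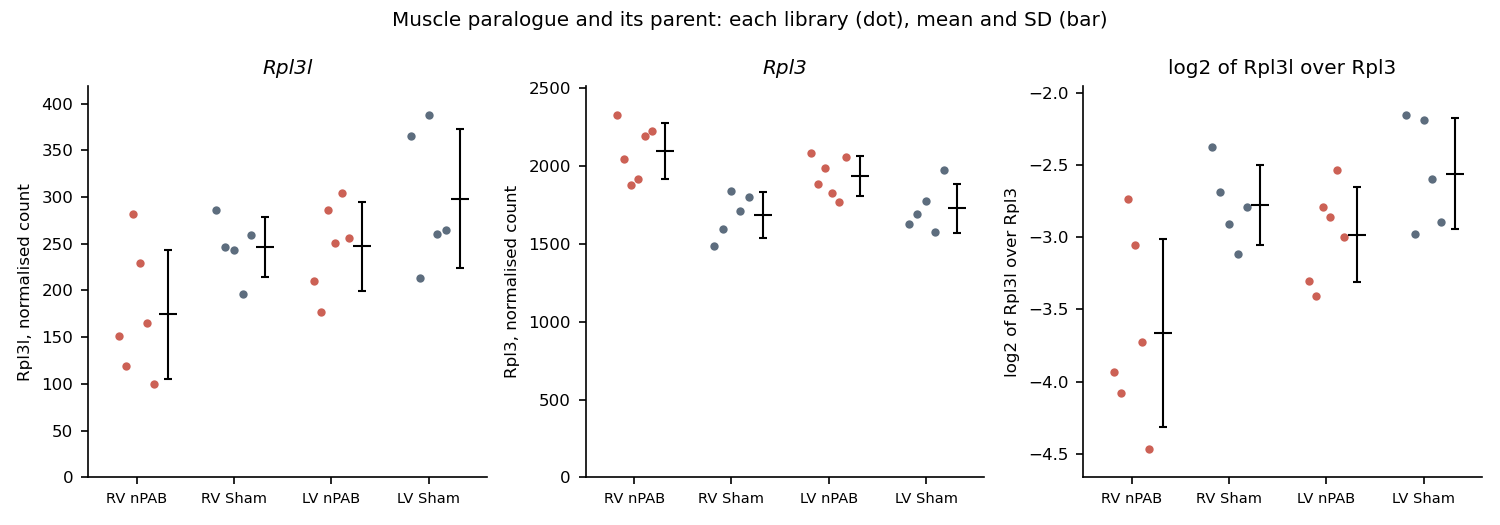
Normalised counts of Rpl3l and of Rpl3 and the log2 ratio of Rpl3l to Rpl3 in each library, for RV nPAB, RV Sham, LV nPAB and LV Sham; points are mice and bars the group mean ± SD, and the 2 ventricles were normalised separately. By group mean, Rpl3l is lowest and Rpl3 highest in RV nPAB, where the mean log2 ratio is −3.67, against −2.78 in RV Sham.

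The genes whose level followed Rpl3l most closely were ranked by the lower of the 2 Pearson correlations within the RV and within the LV, over 11 libraries each, among the 10234 genes that averaged 50 or more. Since nPAB and Sham mice are both in each correlation, a shared group difference adds to it. The first was Adamtsl3, a secreted matrix protein (r = 0.84 in the RV and 0.78 in the LV), then the leptin receptor gene Lepr (0.80 and 0.77), Tstd2 (0.77 and 0.78), Add3, an adducin of the membrane skeleton (0.77 and 0.87), and Hrc, a calcium-binding protein of the sarcoplasmic reticulum (0.82 and 0.76). Of these 5, 4 fell in the RV: Adamtsl3 (log2 −0.72, adjusted p = 0.035), Lepr (−0.80, 0.035), Add3 (−0.50, 0.0012) and Hrc (−0.52, 0.0093), while Tstd2 gave −0.30 (0.33). Rpl3 was at the other end of the ranking, at 9898 (r = −0.75 in the RV and −0.34 in the LV). The summed cardiomyocyte markers were 76458 to 89614 CPM in RV nPAB, against 86839 to 96962 in RV Sham, and their part in the Rpl3l values was not tested.

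The effect of banding on the members did not differ detectably between the ventricles. In the test of the RV difference less the LV difference per mouse, 0 of 81 members were called with limma, and 0 with edgeR or DESeq2, where limma called 1.11% of 13364 genes, 0.584% higher and 0.524% lower. At an unadjusted p under 0.05 the count was also 0, and it was 5 without nPAB mouse 7 and 7 without nPAB mice 6 and 7, when limma still called 0 members but 283 genes higher and 218 lower, against 78 and 70 with all mice. The values were −0.32 for Rpl3l (adjusted p = 0.60), 0.15 for Rpl3 (0.50) and 0.17 for Rpl38 (0.40), and the median over members was 0.02, or −0.01 to 0.05 with 1 mouse left out (lowest without Sham mouse 13, highest without nPAB mouse 7 or Sham mouse 12). The calls in the RV and not in the LV are therefore not shown to be particular to the RV.

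Between the ventricles of the same Sham mouse, with each library scaled to its own total, limma called 0 of 81 members higher and 1 lower in the RV, where 1.56% of all genes were higher and 0.688% lower, 2.24% in all. The median log2 difference was 0.04 over members and 0.03 over all genes. With TMM scaling these medians were 0.0029 and −0.0037, and over all genes 154 were higher and 127 lower, against 208 and 92 with CPM. Rpl3l gave −0.24 (SE 0.12) and did not pass (adjusted p = 0.42). In the same comparison 7 of 8 fibroblast markers were higher in the RV (median 0.36). Of 10 cardiomyocyte markers 1 was higher and 2 were lower (median −0.06). Among 8 endothelial and 8 mural markers 1 each was higher, and no atrial, erythroid or leukocyte marker passed. The part of these markers in the Rpl3l value was not tested.

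In nPAB mice, limma called 0 of 81 members between RV and LV, where 1.12% of all genes were called and 0.516% were lower, and 3 had an unadjusted p under 0.05. Rpl3l gave −0.58 (SE 0.15, adjusted p = 0.057), and was called lower in the RV with DESeq2 (−0.60, 0.018), without mouse 7 (−0.68, 0.014) and without mice 6 and 7 (−0.71, 0.010). In the same comparison none of 10 cardiomyocyte markers was higher and 3 were lower (median −0.23), with sums of 76458 to 89614 CPM in RV nPAB, against 87786 to 108802 in LV nPAB. Of 5 atrial markers 1 was higher (median 1.67). Their part in the Rpl3l value was not tested.

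The summed reads of the 81 genes took nearly the same share of every library. The share was 3.77 ± 0.083% in RV nPAB and 3.68 ± 0.11% in RV Sham, and 3.69 ± 0.15% in LV nPAB and 3.60 ± 0.18% in LV Sham (SD, n = 6 and 5). Its lowest and highest values were 3.68 and 3.89% in RV nPAB, against 3.51 and 3.78% in RV Sham, and 3.46 and 3.91% in LV nPAB, against 3.39 and 3.83% in LV Sham. The groups overlapped in both ventricles, and the differences of 0.090 percentage points in the RV and 0.098 in the LV were no larger than the SD of at least 1 of the groups compared. Rows of ribosomal protein pseudogenes carrying a -ps symbol took 0.110 to 0.140% of reads. That figure leaves out copies with other symbols, such as Gm14303, a copy of Rps29 (mean 2035 normalised counts), and Gm15772 (1133).

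**Figure D5:**
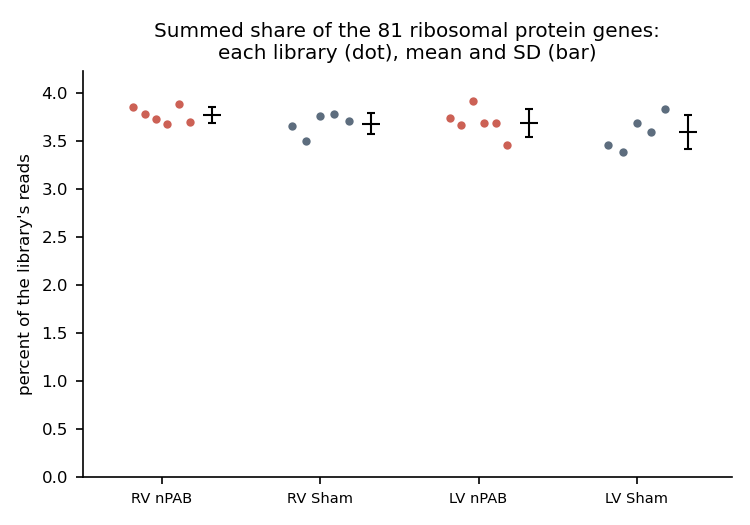
Share of each library's reads (%) counted to the 81 ribosomal protein genes, for RV nPAB, RV Sham, LV nPAB and LV Sham; points are mice and bars the group mean ± SD. All libraries lie between 3.39 and 3.91%, and the groups overlap.

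The machinery around the ribosome was described with lists taken for their known role, and these were likewise chosen with earlier results known. Ribosomal genes outside the symbol rule included 2 that rose in the RV, Fau (log2 0.24, adjusted p = 0.029), whose product yields the 40S protein eS30, and Rack1 (0.20, 0.034), a scaffold on the 40S head. Of 54 ribosome biogenesis genes tested, 6 rose (11.1%, the same share as the 11.1% of all genes) and none fell in the RV (median 0.16). The clearest were the 40S processing factor Rrp12 (log2 1.65, adjusted p = 1.1e-05), the nucleolar GTPase Gnl3 (0.63, 0.0015), Noc4l (0.73, 0.0053) and Nhp2 of the pseudouridylating snoRNPs (0.62, 0.026). In the LV, Rrp12 (1.31) and Pno1 were the 2 that rose (3.70%, against 4.76% of all genes). Of 15 RNA polymerase I genes, 1 fell in the RV (6.67%, against 10.8% of all genes) and none rose. It was the catalytic subunit gene Polr1a (log2 −0.44, adjusted p = 0.018), and the median of the list was −0.08.

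Of 18 translation factors whose mRNAs carry TOP motifs, 4 were higher (22.2%) and 1 lower (5.56%) in the RV and 13 did not pass (median 0.10), where 11.1% of all genes were higher and 10.8% lower. Those higher included Eif3h (log2 0.39, adjusted p = 0.0055) and Eif3l (0.34, 0.0073) of the eIF3 complex and the elongation factor gene Eef1g (0.28, 0.019). The lower one was the helicase gene Eif4a2 (−0.44, 0.0019). Of 28 other initiation factors, 7 rose (25.0%, against 11.1% of all genes) and none fell, led by Eif4a1, the helicase that Eif4a2 resembles (1.16, 1.8e-05), Eif1a (0.48, 0.0013), Eif2s2 (0.31, 0.011) and Eif2b5 (0.46, 0.020). In the LV, 2 of the 28 rose (7.14%, against 4.76% of all genes), among them Eif4a1 (0.91). The muscle elongation factor gene Eef1a2 gave −0.00.

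Of 22 genes of mTORC1 and TOP mRNA control, 1 rose and 1 fell in the RV (4.55% each, under the 11.1% and 10.8% of all genes). The mTORC1 inhibitor gene Ddit4 rose (log2 1.36, adjusted p = 3.2e-04), and Pdcd4, whose product blocks eIF4A, fell (−0.95, 1.7e-04). None of 6 ribosome dimer and hibernation factors passed.

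Mitochondrial ribosomal protein genes, which build the separate ribosome of mitochondria, had 15 of 77 higher (19.5%, against 11.1% of all genes) and none lower in the RV (median 0.16). In the LV 5 of 77 were higher (6.49%, against 4.76% of all genes; median 0.14). Examples in the RV were Mrps18a (log2 0.68, adjusted p = 8.3e-05), Mrpl20 (0.67, 4.0e-04), Mrpl54 (0.66, 6.5e-04) and Mrpl33 (0.40, 0.0013). Respiratory chain subunits with short transcripts, like those of ribosomal proteins, had 4 of 46 higher (8.70%) and 2 lower (4.35%) in the RV (median 0.06), both under the shares of all genes. In the LV 2 of these 46 were higher (4.35%, against 4.76% of all genes) and none lower. Their LV median was 0.11 with 76.1% above 0, against 0.11 and 87.7% for the cytosolic ribosomal protein genes. Nuclear and rRNA-linked RNAs had 1 of 6 higher (16.7%) and 4 lower (66.7%) in the RV, against 11.1% and 10.8% of all genes. Among the lower was Malat1 (−0.87, 7.3e-06), and the part of RNA composition in the results was not tested.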

How the data were processed

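Per the labels' protocols, the Qiagen RNeasy Plus Mini kit gave bulk RNA from which Revelo RNA-Seq High Sensitivity libraries were prepared. Tools named in the submitters' processing notes are cutadapt, featureCounts and DESeq2, with the build mm10. For their versions, the aligner, the strand setting and the treatment of reads with several matches, the sources used here give no statement. The authors deposited 1 table for each ventricle, normalised separately, whose values are a signal of gene counts divided by a DESeq2 size factor, per the labels. All values were whole multiples of 1 read within 0.001 (100% of values), so depth could be recovered and was 7.11 to 11.3 M reads a library. No column was left unmapped.

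From these values, limma 3.58.1 in R 4.3.3 (trend and robust options) was run on log2(value + 1) over every gene averaging 10 or more, as a two-sided test with Benjamini-Hochberg adjustment at a threshold of 0.05. Such fold changes understate the change of low genes. Every adjusted p given for a gene is from limma unless another tool is named. Banding was tested within each ventricle, and the 2 effects were compared through each mouse's RV value less its LV value on the log2 scale. RV against LV used CPM (reads scaled to the library's own total), in the same mouse. The Rpl3l to Rpl3 ratio was tested with exact permutation tests (scipy 1.17.1). edgeR 4.0.16 and DESeq2 1.42.0 were run on the recovered reads as alternatives. Model fits were checked on simulated data.

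The RV and LV libraries of a number are from 1 animal by the labels. Their deviations from the group means correlated at 0.133 to 0.384 in 9 mice, each best with its own number, and at 0.171 and 0.0559 in nPAB mice 6 and 7, where another mouse's library correlated better (0.180 and 0.0836). In these 2 mice the sex-linked genes lay crosswise. Xist had 3040 normalised counts in RV 6 and 3323 in LV 7, with Ddx3y at 0. Ddx3y had 1058 in LV 6 and 1175 in RV 7, with Xist at 1.86 or less. Whether libraries of these mice were exchanged was not tested. Libraries of a group always differed beyond counting noise, the closest pair having a chi-square of 7.47 per degree of freedom.

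Near-identical copies were found with blastn 2.17.0 (Biopython 1.88 for pairwise alignment) between each member's coding sequence and all GENCODE mouse transcripts, at 95% identity over 80% of the coding sequence. Coordinates are GRCm38, the assembly behind mm10.

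The members, gene lists and named genes were chosen with earlier results of these data known. The named genes are Rpl3l, Rpl3, Rps19, the stalk genes, Rpsa, the paralogue pairs, all members called where at most 12 were called in a direction, the 3 members of highest and of lowest mean count, the 5 genes most like Rpl3l, and up to 4 called genes with the smallest p of each other list. A few of these genes are left out of this text. Pno1 in the LV, Malat1, Rpl9, Rpl12 and the members with copies or same-mouse levels described were named after their values were seen. Alternatives changed the pseudocount, filter, scaling, tool, pairing and the mice included.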

Additional observations from a re-analysis of the deposited data

Results flagged for a closer look

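The gap between a library and its nearest neighbour was checked in 132 sets of 5 or 6 libraries of 1 member in 1 group. In 10 of them a library had a gap that was large for the range of its set. Chance would give about 1 in 20, or 6.6, for independent sets picked without regard to the values. These sets cover only some members, chosen with earlier results known. Rpl35a, Rpl26 and Rps19 were each flagged in both ventricles of the same mouse, so their sets are not independent. The count of 10 is therefore not a test against 6.6. Rpl35a had 920 normalised counts in RV Sham mouse 10 (nearest 1913) and 928 in LV Sham mouse 10 (nearest 1708), and Rpl26 had 327 in RV Sham mouse 13 (nearest 1166) and 326 in LV Sham mouse 13 (nearest 1085). Rps19 was high in both ventricles of Sham mouse 11, with 1893 in the RV (nearest 1444) and 1721 in the LV (nearest 1280). Rplp0 had 6269 in LV Sham mouse 13 (nearest 4507), and the same mouse was also highest of RV Sham, at 5829 (nearest 4833). The others were Rpl41 with 16334 in LV nPAB mouse 7 (nearest 14540), Rpl13a with 224 in RV nPAB mouse 10 (nearest 130), and Rpl29 with 217 in RV nPAB mouse 5 (nearest 172).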

How the results depend on the processing

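Of 12 members called higher and 2 lower in the RV, 7 were higher without limma's trend and robust options and 5 with CPM, and 1 was lower with copies summed. Of 3 higher and 2 lower in the LV, 1 was higher with no filter, 1 with CPM, 0 without trend and robust and 0 without nPAB mice 6 and 7, while 1 was lower without trend and robust, 0 without mice 6 and 7 and 1 with copies summed. Against 1 member lower in RV Sham than in LV Sham, 0 were called with no filter, without trend and robust and with no replicate block. In nPAB mice, 1 member was lower in the RV with DESeq2 and without mice 6 and 7. Without the pairing block, the RV less LV log2 ratio of Rpl3l to Rpl3 was −0.68 in nPAB mice (exact permutation p = 0.0498) and −0.47 in all mice (exact permutation p = 0.0617). With the pairing the exact sign-change p was 0.0625 in nPAB mice and 0.0166 in all mice.

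Leaving out 1 mouse gave 7 to 15 members higher (7 without Sham mouse 10, 8 without nPAB mouse 11 or Sham mouse 13) and 2 to 3 lower in the RV, 0 to 5 higher and 2 lower in the LV, 0 to 1 lower in RV nPAB against LV nPAB, and RV ratio differences of −1.07 to −0.73. It moved Rpl22l1 between −0.024 and 0.12, Rpl7l1 between −0.0034 and 0.18 and Rplp1 between −0.12 and 0.047 in the RV, Rplp1 between −0.025 and 0.13 in the LV, and the Rpl26 difference between ventricles between −0.047 and 0.057.

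Signs turned for values that were not called. With CPM these were Rpl22l1 (−0.032), Rpl7 (−0.0048), Rplp2 (−0.016) and Rps27l (−0.038) in the RV and Rpl22 (−0.013), Rplp1 (−0.016) and Rps27 (−0.0011) in the LV. With copies summed Rpl13a in the RV was 0.23. The Rpl26 difference between ventricles was −0.0034 with TMM, −0.0093 with edgeR, −0.0075 with DESeq2 and −0.018 with copies summed. The causes were not tested. Of 317 comparison-level values, 284 kept their side and direction or size. Depth limits the low members Rpl3l, Rpl13a and Rpl29 most.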
